A study of Mus musculus with 33 samples.

Results

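Astrocyte-lineage cells of the mouse hippocampus, caught by 2 different sorts, were compared gene by gene. The first sort took GFP-positive hippocampal cells of NestinGFP mice, which are named for a green fluorescent protein reporter and the progenitor gene Nes. The other took cells of the neurogenic niche of C57BL/6 mice after neurons had been depleted, with no reporter. Cells were selected on 7 genes of the astrocyte lineage: Aldoc, Clu, Slc1a3, Hopx, Mlc1, Ttyh1 and Mfge8. A cell was chosen where these genes summed to 20 or more of the about 1500 transcripts to which the authors had thinned each cell. By this rule 85 of the 299 Nestin-GFP cells were chosen (28.4%, exact 95% interval 23.4% to 33.9%). Of the 1109 niche cells 201 were chosen (18.1%, 15.9% to 20.5%), so that both groups together hold 286 of the 1536 cells of the series. By experiment the niche share ran from 8.82% (experiment 4) to 31.5% (experiment 3), and the Nestin-GFP share lay within that range. The intervals treat cells as independent and do not measure the spread between experiments.

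The series has 33 libraries made by SORT-seq, a plate-based method in which each transcript end carries a barcode for its cell and a random tag for its molecule (a UMI). There are 31 niche libraries in 5 numbered experiments, a single Nestin-GFP library, and a single library of C57BL/6 mice older than 12 months. Per the labels' protocol, live single cells negative for antibodies against GluR1 and Cd24 were sorted. The strain is given as C57BL/6 and the genotype as wild-type for all libraries, that of the NestinGFP mice included, and the sources used here do not give the age of the Nestin-GFP and niche animals. Nor do they give the number of mice behind a library or experiment, or the promoter fragment behind the reporter. One library stands on the Nestin-GFP side, so every p-value below rests on the spread between the 5 niche experiments, which may be technical, and assumes that the single library varies as they do.

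Astrocytes clear glutamate, buffer potassium, supply cholesterol and lactate, and are joined by gap junctions. In the dentate gyrus the radial stem cells that give rise to new neurons share much of this gene set. These stem cells are set apart by Nes, Vim, Fabp7 and proneural genes. Mature oligodendrocytes, by contrast, are known by myelin genes such as Mbp and Mag.

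The 5 niche experiments gave 57, 55, 40, 12 and 37 chosen cells of 377, 343, 127, 136 and 126. Just outside the threshold lay 5 niche cells at sums of 17 and 18 and no Nestin-GFP cell, and just inside it 5 niche cells at 20 to 22 and 2 Nestin-GFP cells at 22. The sum of the 7 genes had a median of 52 in Nestin-GFP cells and of 41, 50, 38, 35.5 and 60 in experiments 1 to 5. Chosen cells held a median of 4758 transcripts in the Nestin-GFP library and of 2659, 3981, 4802, 18721 and 2748 in the niche experiments. Summed over chosen cells, without spike-ins and mitochondrial rows, there were 446282 counts of genes listed in all experiments in the Nestin-GFP library and 168317, 281173, 225521, 195582 and 128270 in experiments 1 to 5. All levels below are CPM, the count of a gene divided by the sum of its library or experiment and brought to a common total. They carry no further scaling, whereas the test used scaling factors (TMM) of 0.907 for the Nestin-GFP sum and 0.993 to 1.09 for the niche sums. A CPM near either end of the niche range can thus change side after TMM scaling. CPM values of the 6 old cells that the rule chose rest on 12934 counts, where 1 count is worth 77.3 CPM, and are given for summed lists and as points in the plot of levels by gene.

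**Figure D1:**
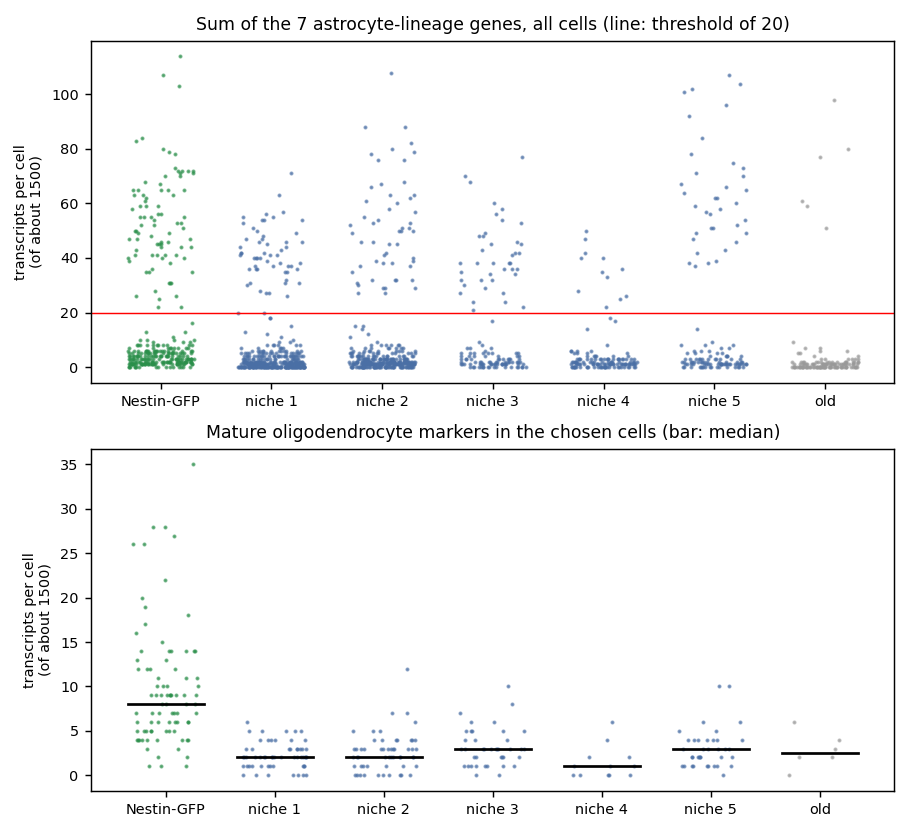
Transcripts per cell (of about 1500, vertical axes) by library or experiment. Top: the sum of the 7 genes in every cell, with the threshold of 20. Bottom: the sum of the mature oligodendrocyte markers in the chosen cells, with the median as a bar, which is 8 in Nestin-GFP cells and 1 to 3 in the niche experiments.

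The 7 selecting genes are described without a test. Aldoc, a glycolytic enzyme of astrocytes, stood at 9521 CPM in Nestin-GFP cells and at 6470 (experiment 1), 6512, 7339, 5471 and 8365 CPM in the niche experiments. Hopx, a homeodomain gene of quiescent stem cells and astrocytes, stood at 1002 CPM against 915, 3361, 1712, 1534 and 3422 CPM. Only Aldoc lay above all 5 experiments, and only Mlc1, a membrane protein of astrocyte endfeet, lay below them, at 1141 CPM against 1188 to 1551. Clu, Slc1a3, Ttyh1 and Mfge8 lay within the niche range, as Hopx did.

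Astrocyte markers stood at similar levels in Nestin-GFP and niche cells. Of 8 astrocyte markers that the rule did not use, 7 lay by CPM within the range of the niche experiments and 1 lay above it without passing the test. Slc1a2, the main glutamate transporter, stood at 10997.5 CPM against 7405 to 13971 CPM. Aqp4, the water channel of endfeet, stood at 1206 CPM against 558 to 2393 CPM, and Gja1, the gap junction protein connexin 43, at 2644 CPM against 1828 to 2691 CPM. Apoe, Cst3, Sparcl1 and Gpr37l1 were likewise within the niche range.

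The test was edgeR's quasi-likelihood F test on the summed counts, adjusted over 4263 genes by Benjamini-Hochberg. It called 3 genes higher in Nestin-GFP cells, Ptgds, Cldn11 and Mid1, or 0.0704% of the genes tested. No gene was called lower (0.0%). At an unadjusted p under 0.05 there were 79 genes higher (1.85%) and 94 lower (2.21%), and the DESeq2 test called the same 3 genes higher and a single gene, Gm20594, lower. By level alone, Nestin-GFP cells lay above all 5 experiments in 371 genes (8.7%) and below all 5 in 798 (18.7%). After TMM scaling, with the selecting genes left out, the split was 629 above (14.8%) and 514 below (12.1%) of 4256, so the excess lay on the lower side by library total and on the higher side after TMM scaling. Scaling by library size alone moved the median log2 fold change of all genes from -0.03 to -0.20.

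**Figure D2:**
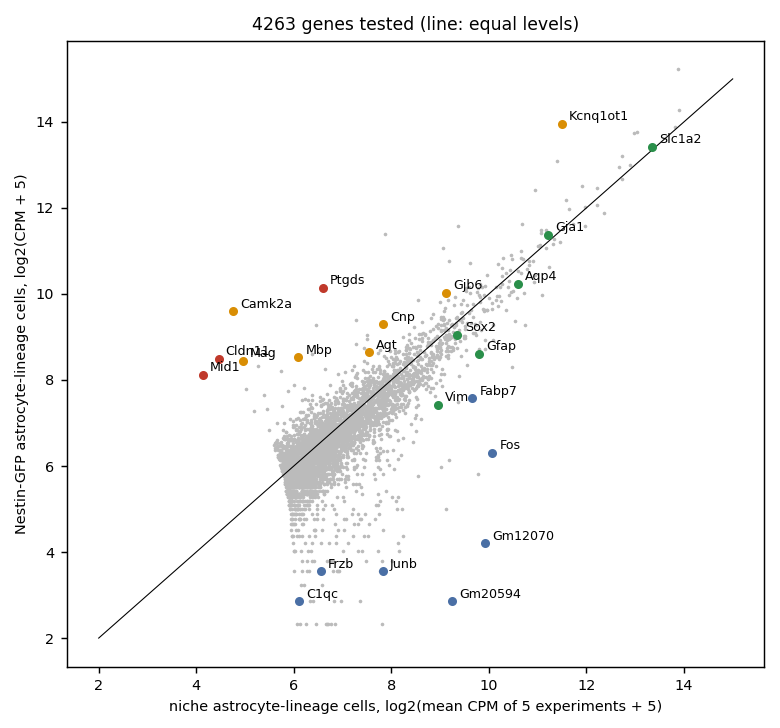
Level in Nestin-GFP cells (vertical axis) against the mean of the 5 niche experiments (horizontal axis), both as log2(CPM + 5), for 4263 genes. Red marks the 3 called genes, Ptgds, Cldn11 and Mid1; orange and blue mark genes named in the text with Nestin-GFP levels above and below all 5 niche experiments, and green marks astrocyte and stem cell genes.

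Genes of mature oligodendrocytes were 2 of the 3 called. Ptgds makes prostaglandin D2 and is abundant in oligodendrocytes and meninges. It lies on chromosome 2 (25466709 to 25470046, minus strand, GRCm38). Its level was 1127 CPM in Nestin-GFP cells (503 counts, exact Poisson interval 1031 to 1230.03 CPM, counting error only). The niche experiments had 65.4, 181, 88.7, 35.8 and 85.8 CPM (mean 91.4 ± 54.6, SD, n = 5), so the groups did not overlap. The log2 fold change was 3.75 (SE 0.52) with an edgeR adjusted p of 0.0299. Ptgds transcripts were spread over 82 of the 85 cells, and no cell held more than 4.58% of them.

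Cldn11 encodes a tight junction protein of myelin, on chromosome 3 (31149920 to 31164324, plus strand). It stood at 356 CPM (159 counts) in Nestin-GFP cells and at 23.8, 17.8, 35.5, 0 and 7.80 CPM in the niche experiments. The log2 fold change was 4.45 (SE 0.63) with an edgeR adjusted p of 0.0299, and 65 of the 85 cells held a transcript.

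Mid1 encodes a microtubule-associated ubiquitin ligase and lies on chromosome X (169685199 to 170005736, plus strand), where in mice it reaches into the region shared with the Y chromosome. It stood at 273 CPM (122 counts) against 0, 14.2, 4.43, 20.5 and 23.4 CPM, a log2 fold change of 4.62 (SE 0.61) with an edgeR adjusted p of 0.0299. Unlike Ptgds, it was unevenly spread: 17 of 85 cells held it, and a single cell held 59 of its transcripts.

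These 3 calls hold by a small margin. They ended when experiment 1, 4 or 5 was left out (0 genes). They also ended when only the 3 niche libraries with the UMI pool of the Nestin-GFP library entered. The edgeR adjusted p was then 0.0532 for Ptgds and Cldn11 and 0.257 for Mid1. No call held with the format of the deposited file as a term in the fit. Only experiment 2 shares the format of the Nestin-GFP library, so that fit set Nestin-GFP against experiment 2 alone. The calls ended too when cells with 10 or more transcripts of another cell type were left out (0 genes). The marker sums behind this removal include Ptgds and Cldn11 themselves. With a mean CPM filter of 100, Ptgds alone of the 3 was tested, with an edgeR adjusted p of 0.0838. Without experiment 2 there were 14 genes higher and 7 lower, and without experiment 3 there were 5 higher. The adjusted p of Ptgds ran from 0.00014 to 0.896 over its 19 alternatives, with log2 fold changes of 2.80 to 4.40.

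Other myelin genes had values above all 5 experiments without passing the test. Mag, an adhesion protein of the myelin sheath, stood at 343 CPM against 5.94, 49.8, 66.5, 0 and 7.80 CPM (log2 fold change 3.70, SE 0.80, edgeR adjusted p 0.339). Mbp, the myelin basic protein, stood at 363 CPM against 23.8, 53.3, 133, 5.11 and 101 CPM (2.67, SE 0.76, edgeR adjusted p 0.903). Cnp, a myelin enzyme, stood at 623 CPM against 164 to 310.4 CPM, and Tubb4a, a tubulin of oligodendrocytes, at 289 CPM against 23.8 to 76.7 CPM (edgeR adjusted p 0.105). Sox10, a transcription factor of the whole oligodendrocyte lineage, did overlap, at 488 CPM against 77.2, 583, 79.8, 66.5 and 70.2 CPM. Of 18 listed mature oligodendrocyte markers 9 were tested, and 7 of these lay above all 5 experiments and none below, against 8.7% and 18.7% of all genes. The median log2 fold change of the 9 was 2.29 against -0.03 over all genes. The level filter of the test is a mean that includes the Nestin-GFP sum. Markers low in the niche, such as Cldn11, thus entered only through a high Nestin-GFP level. This share and this median are therefore partly set by the filter.

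The transcripts of this list were spread over nearly all chosen Nestin-GFP cells. Its thinned sum ran from 1 to 35 per Nestin-GFP cell with a median of 8, and 32 of 85 cells held 10 or more. In the niche experiments the medians were 2, 2, 3, 1 and 3, and 0, 1, 1, 0 and 2 cells held 10 or more. Every Nestin-GFP cell held at least 1 such transcript, while 7 of 57 chosen cells of experiment 1 held none.

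In the Nestin-GFP library the same genes were abundant in the cells that the rule did not choose. The 15 markers of the list that all experiments hold summed to 54248 CPM in those 214 other cells, and to 4943 CPM in the chosen cells, or 9.11% of the former. In the other cells of experiments 1 to 5 they summed to 27580.0, 3175, 24675, 1754 and 16612 CPM, and in the chosen cells to 1444, 1440.4, 2049, 1150.4 and 1894 CPM. The chosen cells thus had 5.24%, 45.4%, 8.30%, 65.6% and 11.4% of the level of their neighbours, and the Nestin-GFP library was highest in both kinds of cell. The old library, with 5914 CPM in its other cells, had 1933 CPM in its 6 chosen cells, within the niche range. Ptgds itself stood at 12039.5 CPM in the other Nestin-GFP cells and Cldn11 at 2878 CPM. Mid1, in contrast, was at 215 CPM there, no higher than in the chosen cells. The part of RNA from other cells or of mixed wells in these calls was not tested.

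With the 33 Nestin-GFP cells left out that held 10 or more transcripts of any other cell type, 52 remained. On the mature oligodendrocyte list, which holds Ptgds and Cldn11, 32 of the chosen Nestin-GFP cells reached 10. The fall of both genes and of that list is thus partly set by the removal. Ptgds was then at 754 CPM against 35.8 to 172 CPM in the niche experiments, and Cldn11 at 251 CPM against 0 to 31.4 CPM. Both stayed above all 5 experiments, with an edgeR adjusted p of 0.167. Mid1 was at 110 CPM against 0 to 20.5 CPM, and its mean was then under the level filter of the test. The mature oligodendrocyte sum was 3631 CPM against 1150.4 to 1983 CPM.

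In cells thinned to about 1500 transcripts, Ptgds was found in 78.8% of chosen Nestin-GFP cells and in 0% to 17.5% of niche cells by experiment, and in 85.5% of the other Nestin-GFP cells. For Cldn11 the shares were 49.4%, 0% to 5.26% and 62.6%. Agt, the angiotensinogen gene of astrocytes, went the other way between the 2 kinds of cell of the library: 45.9% of chosen cells held it and 0.93% of the other cells.

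**Figure D3:**
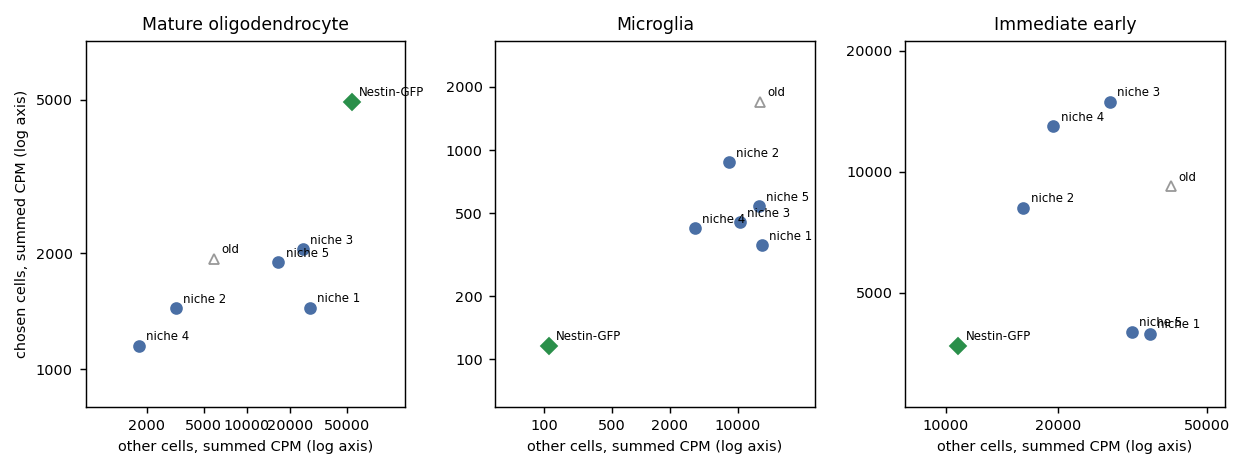
Summed CPM of 3 gene lists in the chosen cells (vertical axes) against the other cells of the same library or experiment (horizontal axes), all on log scales; each point is the Nestin-GFP library, a niche experiment or the old library. The Nestin-GFP library is highest on both axes for mature oligodendrocyte markers (54248 and 4943 CPM) and lowest on both for microglial markers (112 and 117 CPM).

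Microglial genes showed the opposite order. The 15 microglial markers summed to 117 CPM in chosen Nestin-GFP cells against 351, 875, 452, 424 and 538 CPM in the niche experiments. In the cells that were not chosen they summed to 112 CPM in the Nestin-GFP library and to 3646 to 17682 CPM in the niche experiments. C1qc, a complement component of microglia, gave 1 count in the 85 Nestin-GFP cells and 3, 36, 11, 12 and 8 counts in the niche experiments. Csf1r, the receptor for microglial survival factors, stood at 11.2 CPM against 35.6, 110.3, 62.1, 46.02 and 77.96 CPM (edgeR adjusted p 0.949). Of the 4 markers tested, 3 lay below all 5 experiments, against 18.7% of all genes, and none passed the test. 5 of the 15 were at 0 in Nestin-GFP cells.

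Markers of other cell types were low in both groups. Those of oligodendrocyte precursors summed to 1327 CPM in Nestin-GFP cells against 460 to 1547 CPM, endothelial and mural markers to 580 CPM against 439 to 747 CPM, and ependymal and choroid plexus markers to 188 CPM against 76.7 to 430 CPM. Bsg, a vessel-associated membrane protein, stood at 439 CPM and Enpp2, a lipid enzyme of choroid plexus, at 139 CPM, both within the niche range. The single blood and lymphoid marker held in all files was at 17.9 CPM against 0 to 14.2 CPM. Neuronal markers summed to 1093 CPM against 77.96 to 818 CPM, and this value rested on a single cell. Camk2a, a kinase of excitatory neurons, stood at 771 CPM in Nestin-GFP cells, but 96.8% of its transcripts lay in a cell with 26575 transcripts, the largest chosen. Without the cells that held other-type transcripts Camk2a was at 31.4 CPM against 0 to 98.7 CPM.

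The reporter and the gene it is named for were both sparse. An eGFP row is listed in the file of the Nestin-GFP library alone. It gave 40 counts in 29 of 85 chosen cells (34.1%) and 362 counts in 121 of 214 other cells (56.5%). Thinned to about 1500 transcripts, 20% of the chosen and 22.4% of the other cells held it. Nes gave 1 count in the 85 Nestin-GFP cells, or 2.24 CPM (exact Poisson interval 0.057 to 12.5). The niche experiments gave 0, 4, 6, 3 and 1 counts, so no difference in Nes was detectable at this depth.

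Stem and progenitor genes were not higher in Nestin-GFP cells. Of 33 listed genes 20 were tested, none lay above all 5 experiments, 7 lay below against 18.7% of all genes (4 after TMM scaling, against 12.1%), and the median log2 fold change was -0.23. None passed the test. Fabp7, a fatty acid binding protein of radial glia, stood at 186 CPM in Nestin-GFP cells and at 642, 971, 1273, 394 and 741 CPM in the niche experiments. All 5 niche experiments thus had more than the Nestin-GFP library (log2 fold change -1.96, SE 0.66, edgeR adjusted p 0.949, unadjusted p 0.0131). Fabp7 was found in 16.5% of thinned Nestin-GFP cells against 40.5% to 70% of niche cells, and in 16.8% of the other Nestin-GFP cells.

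Frzb, a secreted Wnt antagonist, gave 3 counts in Nestin-GFP cells, or 6.72 CPM, against 35.6, 185, 120, 40.9 and 62.4 CPM. Btg1, an antiproliferative gene, stood at 98.6 CPM against 156 to 307 CPM. Ptprz1, a receptor phosphatase of glia and progenitors, was at 952 CPM against 1135 to 1778 CPM (log2 fold change -0.52, SE 0.44, edgeR adjusted p 0.998). Sox2, a transcription factor of stem cells and astrocytes, lay within the niche range at 524 CPM against 491 to 825 CPM, and so did Vim, an intermediate filament, at 166 CPM against 160.4, 331, 204, 1570 and 195 CPM. Gfap, the filament of astrocytes and radial stem cells, stood at 385 CPM against 232, 427, 381, 2291 and 1091 CPM. In both filaments experiment 4, which has 12 chosen cells, was the highest. Id4, Sox1, Sox11 and Thrsp were within the niche range, and Dkk3, a secreted glycoprotein, at 179 CPM against 217 to 383 CPM was not.

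**Figure D4:**
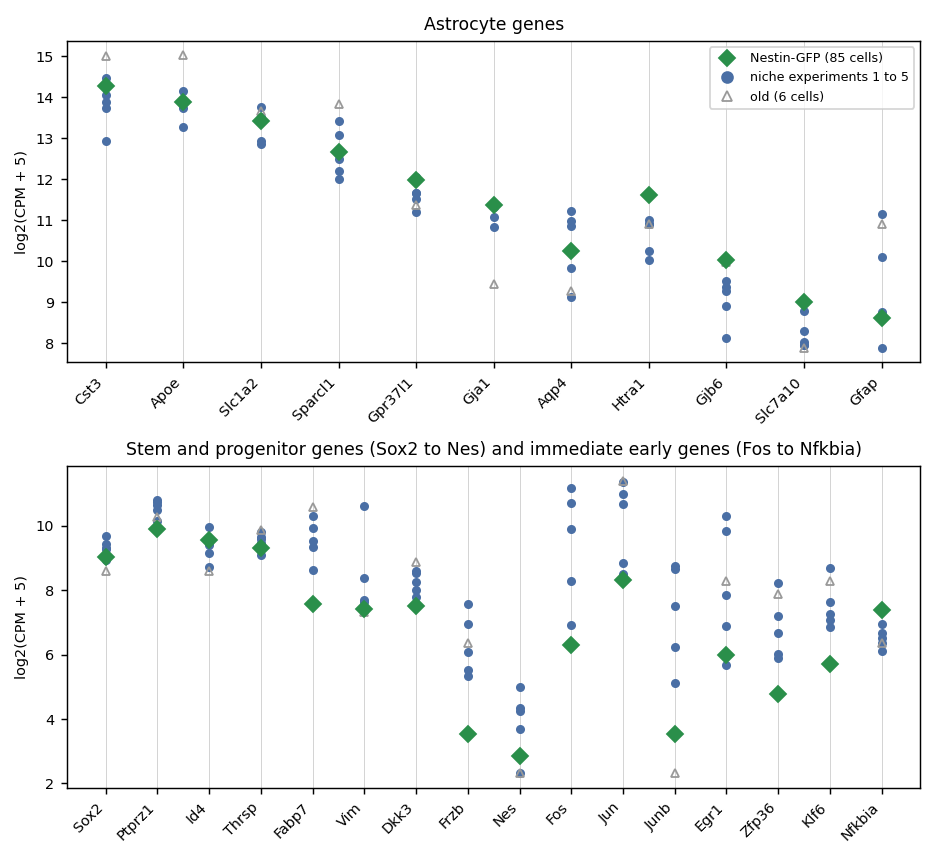
Level of 27 genes as log2(CPM + 5) in the Nestin-GFP library (diamonds), each niche experiment (circles) and the old library (triangles, 6 cells). Astrocyte genes (top) mostly lie within or just above the niche range, while Fabp7, Frzb, Fos, Jun, Junb, Zfp36 and Klf6 (bottom) lie below all 5 niche experiments.

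Immediate early genes, which are switched on within minutes of a stimulus and also by tissue dissociation, were low in the Nestin-GFP library and varied widely among the niche experiments. Fos stood at 73.9 CPM in Nestin-GFP cells and at 309, 950, 2301, 1657 and 117 CPM in experiments 1 to 5. The log2 fold change was -3.67 (SE 1.41) with an edgeR adjusted p of 0.998. Jun, its partner in the AP-1 factor, stood at 311 CPM against 362, 2027, 2612, 1651 and 452 CPM. In the thinned counts Jun lay within the niche range, at 462 CPM against 313 to 2561 CPM. Junb gave 3 counts in Nestin-GFP cells, or 6.72 CPM, against 29.7, 178, 404, 429 and 70.2 CPM. Experiments 1 and 5 were the nearest to the Nestin-GFP library in Fos and Jun, and experiments 2, 3 and 4 were several times higher. Zfp36, an mRNA decay factor, Klf6 and Cyr61 also lay below all 5 experiments, whereas Egr1, at 58.3 CPM against 46.8 to 1258 CPM, did not. Nfkbia, the inhibitor of NF-kappa B, was the single member above all 5, at 164 CPM against 64.02 to 120 CPM.

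Of 40 listed genes 30 were tested, 10 lay below all 5 experiments and 1 above (18.7% and 8.7% of all genes), and none passed the test. The median log2 fold change was -1.49, and -0.52 with the file format as a term. The list's sum was 3697 CPM in Nestin-GFP cells against 3957, 8137, 14957, 13018 and 4007 CPM. This sum carries no TMM scaling, and with the TMM factors of the test applied it would lie within the niche range. The other cells of the Nestin-GFP library had the lowest sum, 10807 CPM against 16109 to 35081 CPM in the niche experiments. Those cells also differ in kind: their microglial markers summed to 112 CPM in the Nestin-GFP library and to 3646 to 17682 CPM in the niche experiments. The old library had 9201 CPM in its chosen cells and 40098 CPM in its other cells.

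Genes of astrocyte functions leaned to the higher side. Of 37 genes tested, 12 lay above all 5 niche experiments and none below (8.7% and 18.7% of all genes). After TMM scaling 16 lay above and none below (14.8% and 12.1% of all genes). The median log2 fold change was 0.40, with 0.24 by library size alone and 0.74 with the file format as a term. None passed the test. Htra1, a secreted protease, stood at 3159 CPM against 1925, 1206, 1916, 1038 and 2050.4 CPM (log2 fold change 1.12, SE 0.46, edgeR adjusted p 0.998). Gjb6, the gap junction protein connexin 30, stood at 1035 CPM against 731, 274, 479, 608 and 655 CPM, and Slc7a10, a transporter of serine, at 506 CPM against 242 to 440 CPM. All 3 were low in the other cells of the same library, with 393, 15.2 and 34.6 CPM.

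Over all genes tested 8.7% lay above and 18.7% below (14.8% and 12.1% after TMM scaling). Glutamate, GABA and ion handling genes, which partly overlap the astrocyte function list, had 9 of 28 above and 3 below (11 and 1 after TMM scaling, median 0.37). Junction and matrix genes had 7 of 32 above and 3 below (12 and 1 after TMM scaling, median 0.28). Among the latter Sdc4, a heparan sulphate proteoglycan, stood at 343 CPM against 101, 167, 226, 245 and 109 CPM (edgeR adjusted p 0.998). Sparc, a matrix glycoprotein, lay within the niche range at 1125 CPM against 428 to 1440.4 CPM. Agt stood at 394 CPM against 154, 156, 204, 133 and 257 CPM (log2 fold change 1.29, SE 0.43, edgeR adjusted p 0.949, unadjusted p 0.0115), and a single cell held 22.2% of its transcripts. Phyhd1, a dioxygenase, stood at 208 CPM against 38.98 to 83.2 CPM and Mfsd2a, a lipid transporter, at 300.3 CPM against 60.5 to 125 CPM. Camk2n1, a kinase inhibitor, stood at 520 CPM against 99.6 to 266 CPM. All 4 were at 6.23 to 141 CPM in the other Nestin-GFP cells, and none passed the test.

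**Figure D5:**
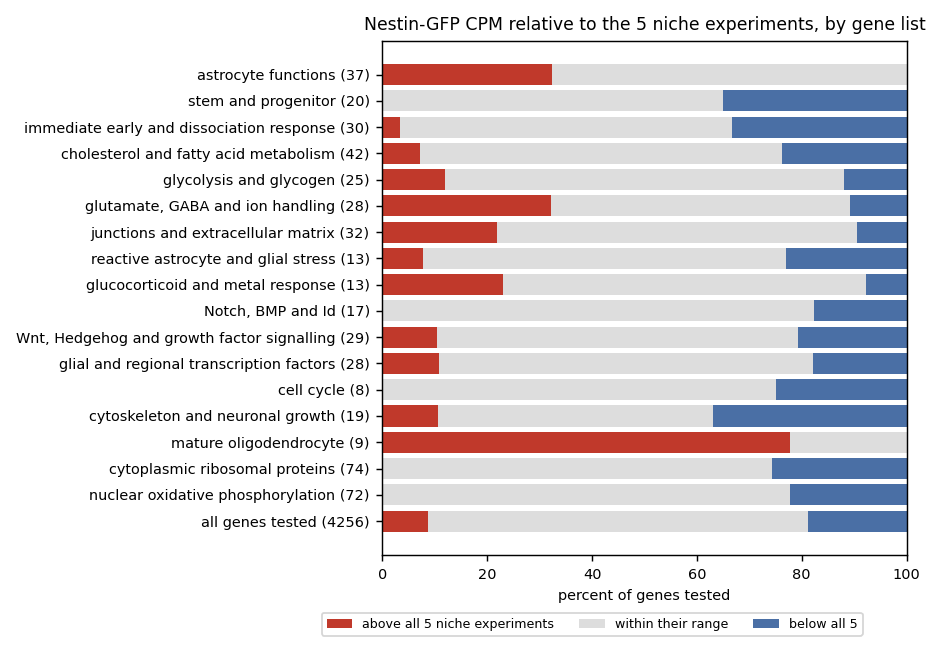
Percent of the tested genes of each list (number in brackets) whose CPM in Nestin-GFP cells lay above all 5 niche experiments, within their range or below all 5, without the selecting genes. Mature oligodendrocyte markers have 77.8% above, astrocyte functions 32.4% above, and stem and progenitor genes 35% below, beside 8.69% above and 18.7% below over all genes. The level filter includes the Nestin-GFP sum, so genes low in the niche entered only where Nestin-GFP was high.

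Metabolic genes had median log2 fold changes near 0, and by library total 2 of 3 metabolic lists summed to less than in any niche experiment. These sums carry no TMM scaling, and with the TMM factors of the test applied both would lie within the niche range. Over all genes tested 8.7% lay above all 5 experiments and 18.7% below (14.8% and 12.1% after TMM scaling). Cholesterol and fatty acid genes had 3 of 42 above and 10 below (7 and 6 after TMM scaling), and a sum of 13592 CPM against 13269 to 17689 CPM. Scd2, a fatty acid desaturase, stood at 2290.03 CPM against 1842 to 3204 CPM, and Hmgcs1, of cholesterol synthesis, at 269 CPM against 437 to 992 CPM. Glycolysis and glycogen genes had 3 of 25 above and 3 below (median -0.01), and summed to 6778 CPM against 7003 to 11295 CPM. Gapdh, a glycolytic enzyme with many pseudogene copies, stood at 614 CPM against 933, 935, 2173, 2101 and 2354 CPM, and Pygm, which breaks down glycogen, at 195 CPM against 31.2 to 155 CPM. Nuclear oxidative phosphorylation genes had none of 72 above and 16 below (3 and 8 after TMM scaling, median -0.07), and summed to 14462 CPM against 15198 to 20621 CPM. Ndufc2 of complex I stood at 571 CPM against 825 to 1087 CPM. None of these genes passed the test.

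Glucocorticoid and metal response genes had 3 of 13 above and 1 below (median 0.52), beside 8.7% and 18.7% of all genes. Mt1, a metallothionein, stood at 5808 CPM against 2299, 4503, 4776, 4208 and 3422 CPM (log2 fold change 0.77, SE 0.46, edgeR adjusted p 0.998). Reactive astrocyte genes had 1 of 13 above and 3 below (median -1.20, and -0.13 with the file format as a term), and their sum of 4580 CPM lay within the niche range of 4190 to 9423 CPM. S1pr1, a sphingosine phosphate receptor, lay within the niche range. The class I histocompatibility genes H2-D1, at 42.6 CPM against 107 to 182 CPM, and H2-K1, at 76.2 CPM against 159 to 351 CPM, lay below all 5.

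Signalling and transcription factor lists were near the background, which was 8.7% above and 18.7% below over all genes (14.8% and 12.1% after TMM scaling). Notch, BMP and Id genes had none of 17 above and 3 below (median 0.14), with the inhibitor Id2 at 869 CPM against 662 to 982 CPM and the Notch target Hes5 at 130 CPM against 140 to 441 CPM. Wnt, Hedgehog and growth factor genes had 3 of 29 above and 6 below (median 0.10). Ntrk2, the neurotrophin receptor, was within the niche range, and Sfrp1, a Wnt antagonist like Frzb, stood at 13.4 CPM against 23.8 to 142 CPM. Glial and regional transcription factors had 3 of 28 above and 5 below (5 and 2 after TMM scaling, median 0.04). Tcf4 stood at 1495 CPM against 1162 to 1483 CPM, and Dmrta2, a factor of the medial pallium, at 33.6 CPM against 77.96 to 154 CPM. Cell cycle genes had none of 8 above and 2 below (median -0.40), with Tuba1b within the niche range. Cytoskeletal genes had 2 of 19 above and 7 below (3 and 3 after TMM scaling, median -0.24), with Dclk1, a microtubule-binding kinase, within the range. Map1a stood at 179 CPM against 46.2 to 107 CPM, and a single cell held 43.9% of its transcripts.

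Cytoplasmic ribosomal protein genes had none of 74 above and 19 below, beside 8.7% and 18.7% of all genes. After TMM scaling 1 lay above and 14 below, beside 14.8% and 12.1% of all genes. The median log2 fold change of these ribosomal genes was -0.43. Their sum was 14780 CPM in Nestin-GFP cells against 12762, 32660, 18508, 27462 and 19490 CPM, so it overlapped the niche range. Rpl37 gave 1 count in Nestin-GFP cells against 5, 10, 15, 24 and 9 counts, and Rpl4 was within the range. Ribosomal protein genes have many near-identical copies, and the sources used here do not say how shared reads were counted.

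The Nestin-GFP library, the old library and the libraries of experiment 2 were deposited in one file format, and the other experiments in another. Kcnq1ot1, a nuclear antisense RNA of the imprinted Kcnq1 locus on chromosome 7, stood at 15829 CPM in Nestin-GFP cells and at 1675, 7166, 1654, 1125 and 2799 CPM in experiments 1 to 5. Zfp560, a zinc finger gene, stood at 314 CPM against 5.94, 114, 4.43, 20.5 and 23.4 CPM. The pseudogene Gm12070 stood at 13.4 CPM against 719, 46.2, 1175, 1125 and 1731 CPM, and in Gm6525 and Rpl31-ps12 experiment 2 was likewise the lowest of the 5. These 5 genes were chosen after their values had been seen, because experiment 2 was the niche experiment nearest to the Nestin-GFP library, and none passed the test. Of all 371 genes above the niche range, experiment 2 was the next highest in 88 (23.7%), while it was the highest niche experiment in 21.02% of all genes. Gm20594 gave 1 count in Nestin-GFP cells against 137, 1245, 576, 153 and 897 CPM, with experiment 2 the farthest. Kcnq1ot1 overlaps a gene on the other strand, and the sources used here do not say whether counting used strand.

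Over the 4263 genes, the log2 levels of the Nestin-GFP library correlated with those of experiments 1 to 5 at Pearson's r of 0.80, 0.81, 0.69, 0.67 and 0.72. Pairs of niche experiments ran from 0.68 to 0.78. These are correlations across genes, which are not independent replicates, of sums that share neither cells nor depth. Genes named here beyond the fixed rule were chosen after their values had been seen.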

How the data were processed

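Reads of the SORT-seq libraries were mapped to mm10 using BWA 0.6.2-r126, according to the submitters' processing notes; the sources used here name no counting tool or annotation. The deposited files hold estimated counts per gene and well, corrected by the authors for UMI saturation, and summed values were rounded. UMI pools of 256 or 4096 gave whole molecules (within 0.05) for at least 99.33% of the values above 0 in each library, while the labels give a UMI of 4 bases. The unit of 26 deposited count files was read from their values, since their column names are bare well numbers. A further table, recorded as a score, was deposited by the authors: counts thinned to 1407 to 1498 transcripts in each of 1536 cells and 12469 genes, plus a constant of 0.1. That table chose the cells, and the count files of the same wells gave the levels.

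Members and gene lists were chosen with earlier results of these data known. Counts were summed per experiment number in the labels. Genes listed in the Nestin-GFP file and in every experiment (12279, without mitochondrial and spike-in rows) with a mean of at least 50 CPM were tested in edgeR 4.0.16 under R 4.3.3, with TMM scaling and the quasi-likelihood F test, and called at a Benjamini-Hochberg adjusted p under 0.05. DESeq2 1.42.0 was an alternative. The fit was tested on simulated data. Named genes were the called genes past 100 CPM outside the niche range, the called or most abundant gene of each list, and Nes, Gfap, Vim, Sox2 and eGFP. Some genes of this rule are not reported here. Gene positions come from GENCODE for GRCm38. Mitochondrial rows are listed in the Nestin-GFP and old files alone and were left out. No doublet caller was run. Wells are numbered alike in all libraries, so shared cell barcodes could not be counted. Alternatives covered scaling, test, filters, threshold, cells, thinning, UMI pool, file format and each experiment left out.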

Additional observations from a re-analysis of the deposited data

Results flagged for a closer look

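In groups of 5 experiments, a value was marked where its gap to the next exceeded Dixon's critical share of the range, which chance reaches in about 1 in 20 groups. Of 89 values tested 12 were marked, 4 of them in experiment 2, 3 in experiment 3, 3 in experiment 4 and 2 in experiment 5. In experiment 2 these were Sox10 (583 CPM), Rpl4 (1291 CPM), Kcnq1ot1 (7166 CPM) and Zfp560 (114 CPM), each higher than in the other 4. In experiment 3 they were Klf6 (408 CPM), Cyr61 (519 CPM) and Camk2a (97.6 CPM), each higher. Experiment 4 had a high Vim (1570 CPM), a low Mfge8 (1007 CPM) and a high median of 18721 transcripts per chosen cell. Experiment 5 had a high Clu (12520.5 CPM) and Ntrk2 (2043 CPM).

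Mitochondrial genes, which no comparison used, took 10.4% of transcripts in the median chosen Nestin-GFP cell. They are not listed in the niche files.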

How the results depend on the processing

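Genes called higher numbered 3 in the fit reported. They numbered 7 with a mean CPM filter of 20, 0 with a filter of 100 (where Ptgds alone of the 3 was tested), 11 with no filter beyond 1 count, and 0 without cells with 10 or more transcripts of another type. With niche libraries of the same UMI pool alone there was 1, Camk2a, and none of the 3. Of 2 alternatives added after seeing the data, Nestin-GFP cells with eGFP only gave 8. The other, file format as a term, sets Nestin-GFP against experiment 2 alone, and none of the 3 calls held in it. Leaving out a niche experiment gave 0 to 14. Genes called lower numbered 0 in the fit reported, 1 by the DESeq2 test, 1 with no filter, 1 with the same UMI pool, and 0 to 7 when an experiment was left out. DESeq2 size factors, library size alone, thresholds of 15 and 30, removal of stem gene-positive cells and the thinned table gave 3 or 4 higher and 0 lower. In the thinned table Mid1 was under the level filter and not tested, whereas Zfp560 was called. Settings in which a gene was not tested gave no value to the counts that follow. Of 1419 values of 76 genes under the alternatives, 1330 kept direction and side of the threshold, 18 of the 3 called genes lost the call, 18 of 10 genes gained one, and 53 of 17 uncalled genes changed sign. No called gene changed sign. The cause of these changes was not tested. No paired analysis was possible because a single library stands on the Nestin-GFP side. At 446282 counts, 3 counts are worth 6.72 CPM in the Nestin-GFP sum and 10.7 to 23.4 CPM in the niche sums, which limits genes such as Nes.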
